A study of Mus musculus with 2 samples.

Results

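Genes of the Wnt and R-spondin pathway that help set hepatocyte zonation were examined in fetal mouse liver: 2 Wnt ligands (Wnt2, Wnt9b), 2 R-spondins (Rspo1, Rspo3), 2 R-spondin receptors (Lgr4, Lgr5), 2 ubiquitin ligases (Znrf3, Rnf43), the feedback gene Axin2 and the secreted Wnt inhibitor Notum. These 10 genes were taken by gene symbol, with no filter on level, and all 10 were found. They were chosen with earlier results of these data known. In all, 43346 Ensembl genes were quantified, of which 21474 are annotated as protein coding. The study holds a single group, liver of healthy B6NCrl embryos at embryonic day 16.5, with 2 biological replicates (total RNA longer than 200 nt, 10 ng per library). Each replicate is a pool of livers of both sexes. The second pool came from 41 embryos, and both carry the same donor identifier. No treatment, genotype or second age is given, so levels, their order, their division among transcripts and the difference between the 2 libraries are described, and no p-value is given. Whether the pools share litters is not given, so the SD of 2 libraries may be partly technical. In bulk tissue, fewer cells of a type and less RNA per cell cannot be told apart.

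Wnt proteins bind Frizzled and Lrp receptors and stabilise beta-catenin, which then acts with Tcf and Lef factors on target genes. The ligases Znrf3 and Rnf43 remove Frizzled receptors from the cell surface, and R-spondins, bound to Lgr receptors, take the ligases away and so raise the response to Wnt. In adult liver, Wnt2, Wnt9b and Rspo3 are made by endothelial cells near the central vein and induce pericentral hepatocyte genes such as Glul. Axin2, Lgr5, Notum, Znrf3 and Rnf43 are themselves Wnt targets in many tissues.

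The ligases, Lgr4, Wnt2 and Rspo3 were expressed at a few TPM (a gene's share of all transcripts, corrected for transcript length), and the other members lay below 1 TPM. Of the 10 genes, 5 reached 1 TPM in both libraries (Rnf43, Lgr4, Znrf3, Wnt2 and Rspo3) and 5 were below 1 TPM in both (Lgr5, Rspo1, Notum, Axin2 and Wnt9b). Over all Ensembl genes 27.9% passed that threshold, and over protein-coding genes 52.2%, so the members' share is near that of protein-coding genes. The median member stood at 1.26 ± 0.060 TPM (SD, n = 2), and the median protein-coding gene at 1.41 TPM in replicate 1 and 1.57 in replicate 2. Together the 10 genes held 2387 expected counts (estimated reads) in replicate 1 and 2694 in replicate 2, out of 43364573 and 47263435 on Ensembl genes.

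Markers of fetal liver were present. Each of 6 hepatocyte and hepatoblast markers and of 6 erythroid markers reached 10 TPM in both libraries. So did 4 of 12 endothelial, 3 of 10 stellate and mesenchymal, 0 of 6 mesothelial and 1 of 6 bile duct markers. At 1 TPM in both libraries these 4 lists had 11, 8, 4 and 3 markers, beside 52.2% of all protein-coding genes, which the bile duct list did not exceed. The share of all genes at 10 TPM was not analysed here. No marker had 0 counts in both libraries. The summed level of the bile duct list was 23.9 TPM in replicate 1 and 40.1 in replicate 2, with Epcam at 0.76 and 5.75 and Krt19 at 2.50 and 8.28 TPM, and that of the stellate list 142 and 175 TPM. The endothelial list summed to 123 and 134 TPM, the mesothelial list to 11.6 and 12.4, and the erythroid list, globins included, to 142853 and 139998. Their part in the differences between libraries given below was not tested.

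**Figure D1:**
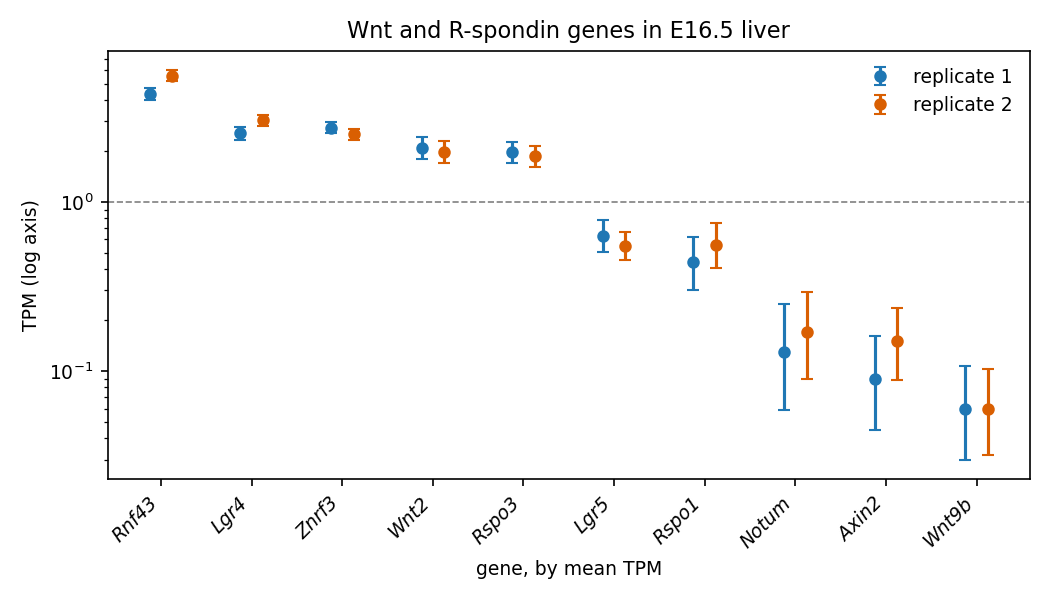
TPM of the 10 genes (log axis), ordered by mean level, in replicate 1 (blue) and replicate 2 (orange) of E16.5 liver. Bars are 95% Poisson intervals of the expected counts and cover counting error only, and the dashed line marks 1 TPM. The genes from Rnf43 to Rspo3 lie above the line and those from Lgr5 to Wnt9b below it in both libraries.

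Wnt2 was the leading Wnt ligand. Its level was 2.09 TPM in replicate 1, from 184 expected counts, and 1.98 TPM in replicate 2, from 179. Wnt9b, the other ligand of the pair, stood at 0.06 TPM in both libraries, from 11 and 13 counts, whose 95% Poisson intervals run from 5.49 to 19.7 and from 6.92 to 22.2. Wnt2 therefore held 97.1% ± 0.106 of the summed TPM of this pair (SD, n = 2). That SD understates the uncertainty, as the TPM of Wnt9b is given to 2 decimals and was the same in both libraries. Exact binomial 95% intervals of the share, which cover counting error only, were 95.1 to 98.6% in replicate 1 and 94.6 to 98.3% in replicate 2. Wnt2 (ENSMUSG00000010797.4) lies on the minus strand of chromosome 6 from 17988940 to 18030585, and Wnt9b (ENSMUSG00000018486.2) on the minus strand of chromosome 11 from 103727364 to 103749821 (GRCm38, GENCODE release M21).

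Across all 19 mouse Wnt genes, Wnt2 alone reached 1 TPM in both libraries. The next, Wnt9a, stood at 0.23 ± 0.057 TPM and Wnt11 at 0.20 ± 0.028. In mean level Wnt9b ranked 11 of 19, a place that rests on few counts. Wnt16, at 0.085 TPM, had 0 and 1 counts and Wnt6, at 0.07 TPM, had 3 and 7, beside 11 and 13 for Wnt9b. The median Wnt gene stood at 0.07 ± 0.028 TPM. Wnt1, Wnt3, Wnt7a, Wnt8a, Wnt8b and Wnt10a had no counts in either library. At 3 counts, which a count of 0 allows, the limit in replicate 1 ran from 0.022 TPM for Wnt8b to 0.063 TPM for Wnt7a. Of the genes needed for Wnt secretion, the carrier Wls stood at 5.46 ± 0.156 TPM and the acyltransferase gene Porcn at 0.99 ± 0.156, with Porcn at 0.88 TPM in replicate 1 and 1.10 in replicate 2.

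Rspo3 was the higher of the 2 R-spondins. It stood at 1.97 TPM in replicate 1 (190 counts) and 1.87 in replicate 2 (195 counts), within the counting error of each other. Rspo1 stood at 0.44 TPM (32 counts) and 0.56 TPM (44 counts). The ranges of the pair did not overlap, and Rspo3 held 79.3% ± 3.39 of their summed TPM. The remaining R-spondins were lower, Rspo4 at 0.055 ± 0.049 and Rspo2 at 0.035 ± 0.021 TPM, with 2 to 9 counts in a library. Rspo3 (ENSMUSG00000019880.9, chromosome 10, 29452416 to 29535867, minus strand) has 1 transcript in the tables and Rspo1 (ENSMUSG00000028871.7, chromosome 4, 124986430 to 125009099, plus strand) has 2, of which 1 held all counts. The antisense gene Gm48159 shares 404 exonic bases with Rspo3 in GENCODE M21 and was not analysed here, so reads of the 2 genes there cannot be told apart.

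Of the R-spondin receptors, Lgr4 exceeded Lgr5 in each library. Lgr4 stood at 2.54 TPM in replicate 1 (526 counts) and 3.04 in replicate 2 (670 counts). Lgr5, a target gene and stem cell marker in several epithelia, stood at 0.63 TPM (85 counts) and 0.55 TPM (114 counts). Lgr4 held 80.1% of the summed TPM of the pair in replicate 1 and 84.7% in replicate 2. Exact binomial (Clopper-Pearson) 95% intervals, at the lengths used in each library, were 76.2 to 83.7% and 82.0 to 87.2%. The length used for Lgr5 was 3195 nt in replicate 1 and 4579 nt in replicate 2, and the intervals do not cover this change. By expected counts Lgr4 held 86.1% and 85.5%, and by coding transcripts alone also 86.1% and 85.5%, so the share did not rise by these measures. Lgr6, the last gene of the family, stood at 0.065 ± 0.0071 TPM. Lgr4 (ENSMUSG00000050199.9) lies on chromosome 2 from 109917647 to 110014257, plus strand, and Lgr5 (ENSMUSG00000020140.11) on chromosome 10 from 115450311 to 115587780, minus strand.

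Lgr5 moved in opposite directions as TPM and as counts. Its TPM was lower in replicate 2, while its counts, scaled to the library total on Ensembl genes (CPM), were 1.96 in replicate 1 and 2.41 in replicate 2. In replicate 1 the noncoding transcript ENSMUST00000129309.1, 607 nt long, was given 4.68 of the 85 counts, and these made 34.4% of the gene's TPM. In replicate 2 it had none. The full-length coding transcript ENSMUST00000020350.10 stood at 0.41 TPM in replicate 1 and 0.51 in replicate 2, so by the coding transcript alone the order of the libraries was that of the counts. The deposited posterior mean, a second estimate of TPM, was 0.88 in replicate 1 and 0.78 in replicate 2, and the Lgr5 TPM of replicate 2 lay below its own deposited interval of 0.567 to 1.02.

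Most Lgr4 TPM was assigned to a transcript that lacks a coding exon. The 2 coding models, 5060 and 4988 nt long, share their start and differ by exon 2 of 18, at chr2:109970692-109970763 on the plus strand, which is 72 bases long, a multiple of 3, and lies within the coding sequence. Lgr5 has an annotated model of the same kind, ENSMUST00000172806.3, which lacks exon 8 of 18, at chr10:115470564-115470635 on the minus strand, also 72 bases. Both exons are shown because the receptors differed in the counts given to the model without the exon. Each sequence is read 5′ to 3′ from the GENCODE M21 transcript that holds it, the exon in capitals and 12 bases of the neighbouring exons in lower case.
Lgr4 exon 2: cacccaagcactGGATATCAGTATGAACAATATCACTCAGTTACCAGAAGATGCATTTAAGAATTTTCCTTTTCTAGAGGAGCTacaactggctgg
Lgr5 exon 8: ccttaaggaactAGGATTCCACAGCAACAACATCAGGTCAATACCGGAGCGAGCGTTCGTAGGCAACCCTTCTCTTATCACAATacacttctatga
The Lgr4 transcript without exon 2, ENSMUST00000111037.2, stood at 1.79 TPM in replicate 1 and 2.51 in replicate 2, and the transcript with it, ENSMUST00000046548.9, at 0.75 and 0.49 TPM. The shorter model thus held 70.5% of Lgr4 TPM in replicate 1 and 82.6% in replicate 2. Its deposited intervals, whose level is not stated, were 0.973 to 2.34 and 1.52 to 2.89 TPM, and those of the longer model 0.205 to 1.497 and 0.121 to 1.39, so the intervals of the 2 models overlapped in replicate 1 and not in replicate 2. The 2 models share all other exons, so this division rests on reads that reach exon 2 or its junctions, whose number was not analysed here. The Lgr5 models lacking exon 8 or exon 5 had 0 counts in both libraries, with deposited upper bounds of 0.171 and 0.144 TPM in replicate 1. The model without exon 8 is annotated as little more than its coding sequence, 2652 nt against 4714 nt for the full-length transcript, so the receptors' models are not matched in length.

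**Figure D2:**
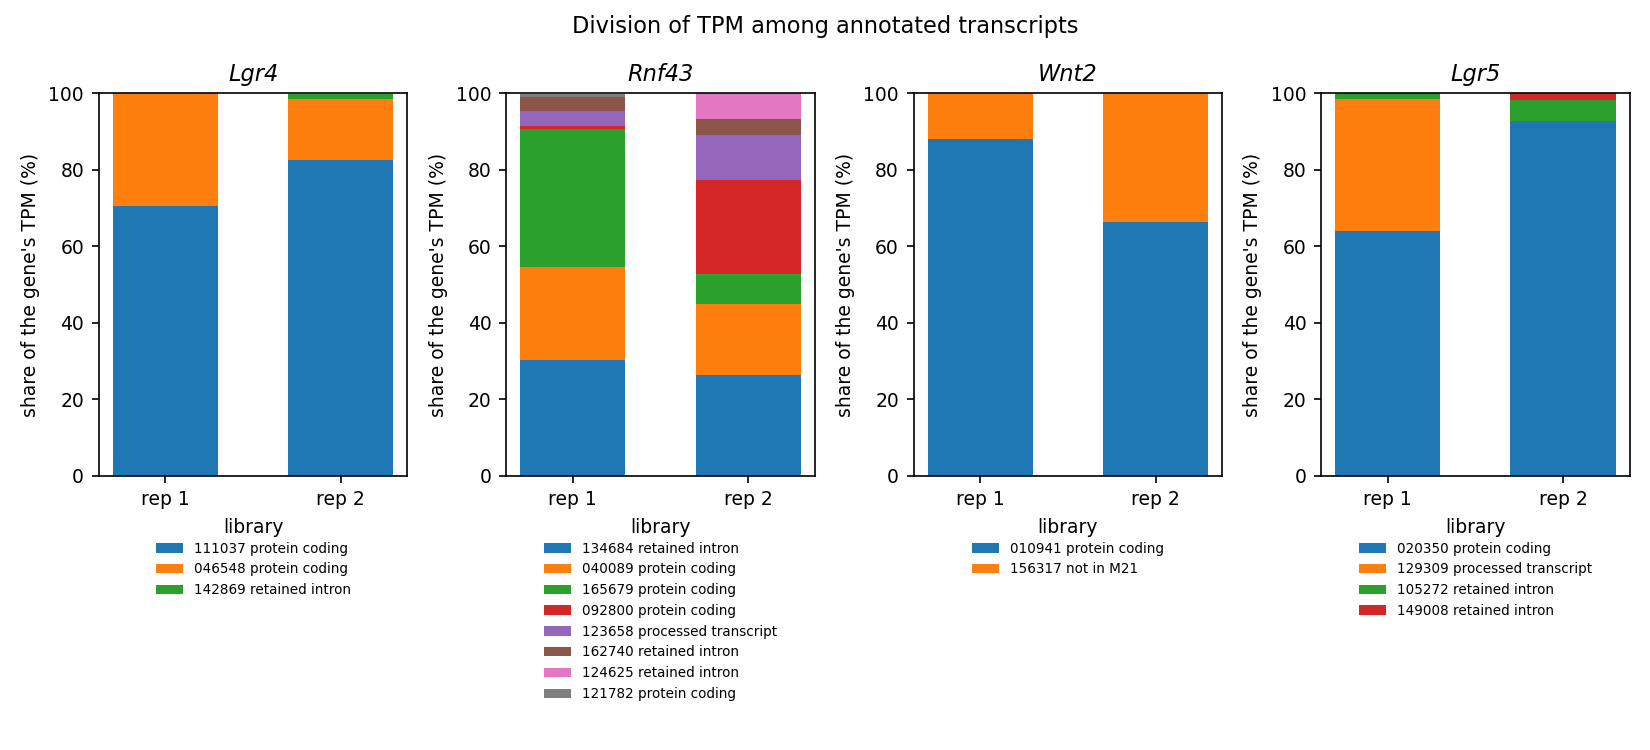
Share of each gene's TPM (percent) held by its annotated transcripts in the 2 libraries, for Lgr4, Rnf43, Wnt2 and Lgr5. Colours are transcripts, named by the last 6 digits of their identifier and their type. Lgr4 is led by the model without exon 2 in both libraries, while 2 coding Rnf43 transcripts change places.

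By TPM, Rnf43 was the highest of the 10 genes and Znrf3 the third. Rnf43 stood at 4.36 TPM in replicate 1 (626 counts) and 5.59 TPM in replicate 2 (740 counts). Znrf3 stood at 2.75 TPM (713 counts) and 2.52 TPM (708 counts). Rnf43 was thus above Znrf3 in both libraries, and Znrf3 held 34.9% ± 5.38 of their summed TPM. That order depends on the correction for length and on which transcripts are counted. By expected counts, which are not corrected for length, Znrf3 held 53.2% in replicate 1 and 48.9% in replicate 2. By TPM of coding transcripts alone it held 50.4% and 46.7%, so which ligase had more coding transcript was not the same in the 2 libraries. By counts per base of the longest coding transcript, chosen after seeing the data, Znrf3 held 43.8% and 39.5%, so Rnf43 was higher in both. Rnf43 (ENSMUSG00000034177.11) lies on chromosome 11 from 87662722 to 87735539, plus strand, and Znrf3 (ENSMUSG00000041961.10) on chromosome 11 from 5276324 to 5444847, minus strand.

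**Figure D3:**
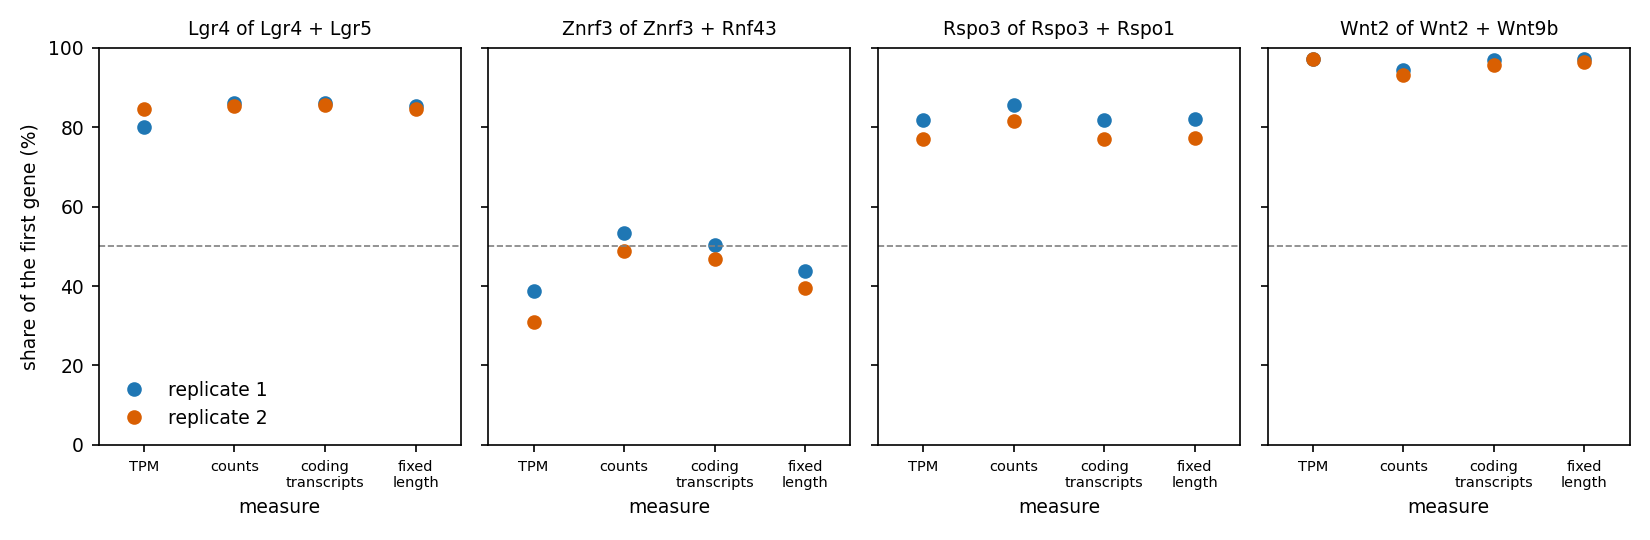
Share (percent) of the first gene in each of 4 pairs in replicate 1 (blue) and replicate 2 (orange), by deposited TPM, by expected counts, by TPM of coding transcripts and by counts per base of the longest coding transcript. The dashed line marks 50%. Lgr4, Rspo3 and Wnt2 lie above it by all 4 measures in both libraries, and Znrf3 lies on both sides of it.

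The ligases differed in how their TPM was divided among transcripts. For Znrf3 the coding transcript ENSMUST00000109867.3 held 96.7% of the gene's TPM in replicate 1 and 98.0% in replicate 2. Rnf43 has 9 transcripts in the tables, and coding ones held 62.2% of its TPM in replicate 1 and 51.2% in replicate 2. The transcript with the highest mean was ENSMUST00000134684.3, a noncoding one with a retained intron, at 1.32 and 1.47 TPM. The coding transcripts ENSMUST00000165679.3 and ENSMUST00000092800.7, which have the same coding exons (2352 bases) and differ in their start, changed places. The former stood at 1.58 TPM in replicate 1 and 0.44 in replicate 2, the latter at 0.03 and 1.38 TPM. Their sum was 1.61 and 1.82 TPM. Deposited intervals of the pair overlapped within each library, from 0.120 to 1.81 TPM for the former and from 1.7e-05 to 1.09 for the latter in replicate 1. Noncoding Rnf43 transcripts under 1000 nt were given 1.65% of the gene's counts in replicate 1 and 4.92% in replicate 2, and 7.57% and 22.5% of its TPM.

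Another coding transcript of Rnf43, ENSMUST00000040089.4, begins at an internal start and lacks 381 of the 2352 coding bases. It stood at 1.06 TPM in replicate 1 and 1.04 in replicate 2, with deposited intervals of 0.480 to 1.92 and 0.168 to 1.77. The 250 bases before an upstream start (87663087, that of ENSMUST00000165679.3) and before the internal start (87699897) are shown because coding TPM of the gene was assigned to transcripts from upstream and internal starts. The upstream window lies after the first start of the gene, 87662722, that of the intron-retaining ENSMUST00000134684.3. No window is shown for ENSMUST00000092800.7, which starts at 87664274. Both are from RefSeq, build GRCm38.p6, plus strand, read 5′ to 3′, with CG dinucleotides in capitals.
Rnf43 upstream start, chr11:87662837-87663086: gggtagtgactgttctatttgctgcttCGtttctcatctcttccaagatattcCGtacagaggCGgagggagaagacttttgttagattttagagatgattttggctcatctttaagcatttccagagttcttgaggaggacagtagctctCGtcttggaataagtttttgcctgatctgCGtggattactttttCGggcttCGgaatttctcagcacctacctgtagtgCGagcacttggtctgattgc
Rnf43 internal start, chr11:87699647-87699896: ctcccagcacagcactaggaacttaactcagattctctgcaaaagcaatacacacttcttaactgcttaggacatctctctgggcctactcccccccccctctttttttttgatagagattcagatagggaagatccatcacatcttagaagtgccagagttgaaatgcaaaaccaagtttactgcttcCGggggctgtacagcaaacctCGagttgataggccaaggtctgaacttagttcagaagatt
The upstream window holds 8 CG dinucleotides and the internal one 2, against a median of 6 over all 32851 RefSeq windows. Axin2 had 24, Rspo1 and Wnt9b 22 each, Wnt2 20 and Lgr4 10. RefSeq windows were matched for 6 of the 10 genes (Axin2, Lgr4, Rnf43, Rspo1, Wnt2 and Wnt9b), 7 windows in all. The core of the site that Tcf and Lef factors bind, CTTTGAT on either strand, was in 0 of these 7 windows of 300 bases and in 3.73% of all windows, which says only that these letters are not there.

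Axin2 and Notum were near the lower end of the 10 genes. Axin2, the most general transcriptional read-out of beta-catenin signalling, stood at 0.09 TPM in replicate 1 and 0.15 TPM in replicate 2. These values rest on 11 and 18 counts, whose 95% Poisson intervals run from 5.49 to 19.7 and from 10.7 to 28.4 and overlap. The posterior mean was 0.28 and 0.37 TPM, more than 1.5 times as high, and the Axin2 TPM lay below its own deposited interval in both libraries. Axin1, a related scaffold protein of the destruction complex that was named after its values were seen, stood at 2.17 ± 0.163 TPM. Notum, a secreted enzyme that removes the lipid from Wnt proteins, stood at 0.13 and 0.17 TPM, from 8.78 and 12.8 counts. Its posterior mean was 0.21 and 0.27 TPM, and its coding transcripts alone had a mean of 0.065 TPM, so the level of Notum moves by more than 1.5 times with the estimate. Notum was the one member whose counts were not whole, and its antisense gene Notumos, which overlaps 708 exonic bases of it, had 1.22 and 2.21 counts, so reads of the 2 genes were divided. The labels name no strand-specific step, and reads of overlapping antisense genes are treated as not told apart. Axin2 (ENSMUSG00000000142.11) lies on chromosome 11 from 108920349 to 108950783, plus strand, and Notum (ENSMUSG00000042988.6) on chromosome 11 from 120653788 to 120661175, minus strand. With Znrf3, Rnf43 and Wnt9b, 5 of the 10 genes lie on chromosome 11, which holds 7.57% of protein-coding genes.

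The division of Axin2 and Notum among transcripts rests on a few counts each. In Axin2 the leading transcript was ENSMUST00000106711.1 in replicate 1, with 7.36 counts, and the full-length ENSMUST00000052915.9 in replicate 2, with 14.7 counts. The noncoding, intron-retaining Notum transcript ENSMUST00000055439.3 led in both libraries, with 4.72 and 5.51 counts. Among the 4 members with several transcripts and a mean of 100 counts or more (Lgr4, Znrf3, Rnf43 and Wnt2), the leader differed between libraries in 1, Rnf43, beside 9.05% of all such genes. Wnt2 kept its leader, ENSMUST00000010941.4, which held 88.0% of its TPM in replicate 1 and 66.3% in replicate 2. The rest went to ENSMUST00000156317.1, which has no entry in GENCODE M21 and was left out where coding transcripts alone were taken.

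In the order of mean TPM, Rnf43, Lgr4, Znrf3, Wnt2, Rspo3, Lgr5, Rspo1, Notum, Axin2 and Wnt9b followed each other. The ranges of the 2 libraries did not overlap for 6 of the 9 neighbouring pairs. Lgr4 and Znrf3, Lgr5 and Rspo1, and Notum and Axin2 did overlap. Counting intervals were apart in both libraries for 4 pairs, Rnf43 over Lgr4, Znrf3 over Wnt2, Rspo3 over Lgr5 and Rspo1 over Notum. The gap between Rnf43 and Lgr4 rests on noncoding transcripts of Rnf43. By coding transcripts alone the mean of Rnf43 was 2.79 TPM and that of Lgr4 2.77. Wnt2 and Rspo3 differed by less than their counting error, as did Axin2 and Wnt9b. In replicate 1 Rnf43 exceeded 61.7% of protein-coding genes in TPM, Wnt2 53.6%, Axin2 33.5% and Wnt9b 31.2%. By expected counts, which are not corrected for length, Znrf3 came before Rnf43 and Lgr4, Rspo3 before Wnt2, and Axin2 and Wnt9b before Notum. With coding transcripts alone Rspo3 came before Wnt2, Rspo1 before Lgr5 and Axin2 before Notum. The place of Wnt2 there rests on leaving out its transcript ENSMUST00000156317.1, at 0.25 TPM in replicate 1 and 0.67 in replicate 2. That transcript has no entry in GENCODE M21, so whether it is coding is not given. By posterior mean Axin2 came before Notum. With 2 libraries of 1 group, likeness of pattern to other genes across samples could not be measured.

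The 2 libraries were compared in these genes by the size of the difference only. None of the 10 members passed a 1.5-fold difference in TPM + 1 after centring, beside 1.89% of the 16258 genes with a mean of 10 counts or more. In this the members do not stand apart from all genes. This measure understates differences of genes below 1 TPM. By counts scaled to the library total, Axin2 differed most, by 0.586 on the log2 scale. This is just past 1.5-fold, from 11 and 18 counts whose Poisson intervals overlap. By the same scaled counts Rnf43 was higher in replicate 2 by 0.12 and Lgr4 by 0.22. Noncoding Rnf43 transcripts under 1000 nt stood at 0.33 TPM in replicate 1 and 1.26 in replicate 2, so the TPM difference of Rnf43 also rests on transcript assignment. On the log2(TPM + 1) scale Rnf43 was higher in replicate 2 by 0.28 and Lgr4 by 0.17. Znrf3 had the lowest value, -0.11. Scaling to the spike-ins moved the median of all genes by -0.31, and the values of Rnf43 and Lgr4 then fell to -0.01 and -0.08, so their direction rests on the scaling, while both stayed above that median. Which member differed most also rests on these choices, since it was Rnf43 here, Axin2 with a pseudocount of 0.1, at 0.37, and Znrf3 with spike-in scaling, at -0.37. Deposited TPM intervals of the 2 libraries overlapped for all 10 genes.

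Genes of the rest of the pathway, from receptors to nucleus, are given by lists chosen with earlier results of these data known. The counts below stand beside 52.2% of all protein-coding genes at 1 TPM in both libraries, and no list was tested. Of 15 Wnt receptor genes, 6 reached 1 TPM in both libraries, a lower share. The co-receptor Lrp6 led at 3.99 ± 0.325 TPM, followed by Ryk at 2.72 ± 0.177 and Fzd1 at 2.31 ± 0.438, and Fzd10 was lowest at 0.005 ± 0.0071. Of 11 genes of the beta-catenin destruction complex and its relay, 10 reached 1 TPM, and Axin2 was the exception and the lowest. Ctnnb1, which encodes beta-catenin, stood at 67.1 ± 0.665 TPM, the kinase gene Csnk1a1 at 62.0 ± 0.594 and Btrc at 13.6 ± 0.516. Of 8 nuclear effectors 6 passed, with Tcf7l2 at 16.1 ± 2.45, Pygo2 at 6.74 ± 1.26, Tcf7l1 at 4.46 ± 0.205 and Lef1 at 1.87 ± 0.382 TPM, and Pygo1 lowest at 0.07 TPM in both.

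Among 18 secreted or membrane inhibitors of Wnt signalling, both ligases were among the higher genes. By TPM over all transcripts Rnf43 came first and Znrf3 the third, with Sfrp1, a secreted Frizzled decoy, between them at 2.91 ± 0.488 TPM. This order rests on noncoding transcripts of Rnf43, whose coding transcripts alone had a mean of 2.79 TPM. By expected counts, which are not corrected for length, Znrf3 held 51.1% of the 2 ligases. Of this list 6 genes reached 1 TPM in both libraries, a lower share than the 52.2% of all protein-coding genes. The median was 0.26 ± 0.074 TPM, and Dkk4 had no counts, which allows up to 0.059 TPM in replicate 1. Of 11 common Wnt target genes 6 reached 1 TPM, near the share of all protein-coding genes. Myc, at 41.4 ± 0.368, and Ccnd1, at 18.4 ± 0.410 TPM, both of which have many other inputs, led the list. Rnf43 came next by TPM over all transcripts, a place that its coding transcripts alone, at the 2.79 TPM given above, would not hold against the total TPM of Tnfrsf19, 2.84 ± 0.240, a gene named after its values were seen. Lgr5, Notum and Axin2 were below 1 TPM, and Sp5 was lowest at 0.02 ± 0.028, with 3 counts in replicate 1 and 0 in replicate 2.

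Genes that mark pericentral and periportal hepatocytes in adult liver were both present. Over all protein-coding genes 52.2% reached 1 TPM in both libraries, and the share at 10 TPM was not analysed here. Of 10 pericentral genes 7 reached 1 TPM in both libraries and 5 reached 10 TPM, with a median of 16.0 ± 1.54 TPM. Rgn led at 180 ± 3.10 TPM, followed by the glutamine synthetase gene Glul, at 125 ± 1.63, and Oat, at 51.5 ± 0.742. Cyp1a2, a pericentral enzyme of drug metabolism, was lowest at 0.10 ± 0.014. Of 10 periportal genes 8 reached 1 TPM and 5 reached 10 TPM, with a median of 12.3 ± 2.11. Ass1 led at 385 ± 47.5 TPM, followed by Arg1, at 96.0 ± 12.7, and Hsd17b13, at 87.6 ± 12.1, and G6pc was lowest at 0.18 ± 0.071. Bulk values do not show where in the lobule any of these genes was expressed.

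**Figure D4:**
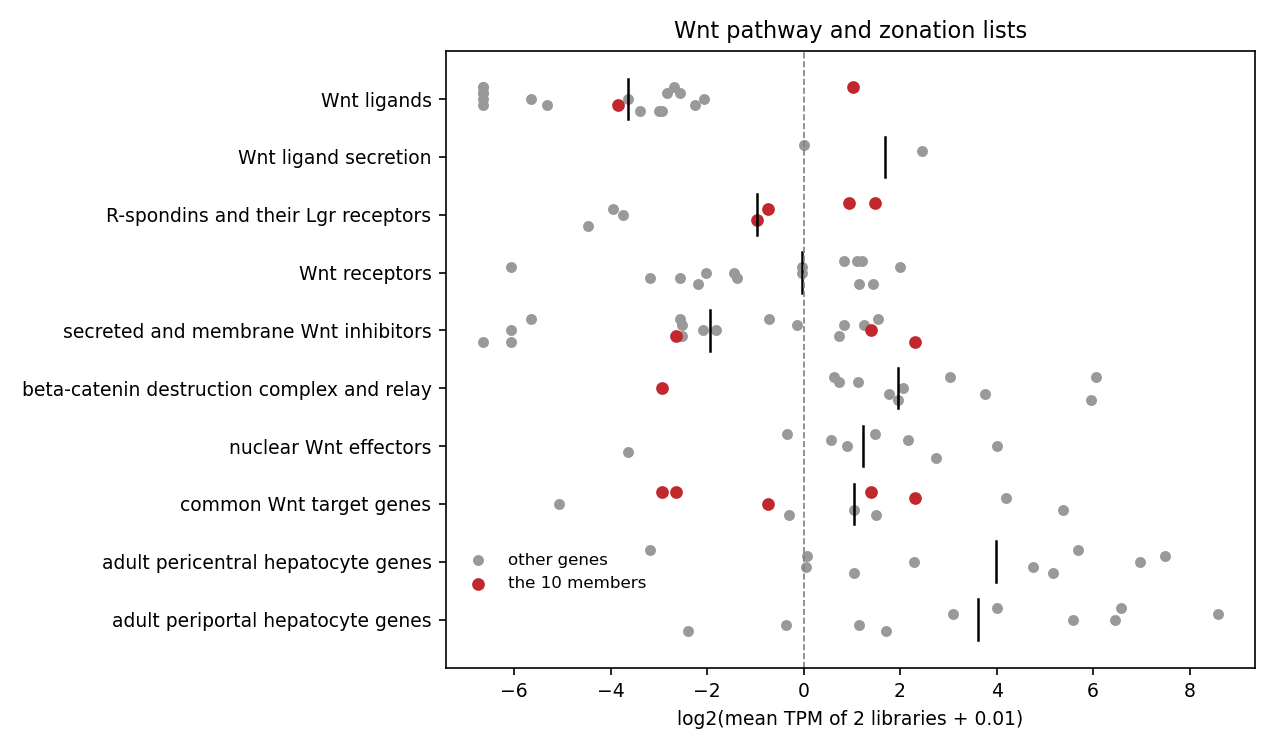
Mean TPM of 2 libraries on a log2 scale (0.01 added) for genes of 8 Wnt pathway lists and 2 zonation lists, with the 10 members in red, other genes in grey and the list median as a vertical bar. Vertical scatter within a list has no meaning, and the dashed line marks a log2 value of 0. Wnt2 lies apart at the right end of the Wnt ligands, while Axin2 is the lowest gene of the destruction complex list.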

How the data were processed

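Levels were measured in 2 libraries of E16.5 liver. Per library, a table of genes and one of transcripts was deposited on assembly mm10 with GENCODE annotation M4, quantified from alignments to the transcriptome, per the file headers and the text beside the tables. Program and aligner, with their versions, are not given in the sources used here. Deposited expected counts are estimated counts, in which reads shared by several transcripts are divided, and the deposited TPM sums to the same total in each table, counting spike-ins (1113157 and 1557247 expected counts, left out of library totals of genes). Members were matched by Ensembl ID, without version, to GENCODE M21 (GRCm38), and 42462 of 43346 IDs matched. Effective lengths are lengths less 99 nt. Levels are means and SDs of 2 libraries of 44477766 and 48820712 expected counts. Intervals are exact, at 95%, and cover counting error only, as reads carry no molecular identifiers. Library ratios are log2 of TPM + 1, centred on genes with 100 counts or more. The method was run on simulated data with larger changes, in genes of higher counts than most members. That run does not cover 1.5-fold differences of genes with low counts. All 10 members are named, and of each list the 3 highest and the lowest, all genes of lists of 8 or fewer being allowed, and Axin1 and Tnfrsf19 besides. Members and lists were chosen with earlier results of these data known. A count was called whole when it lay within 0.01 of an integer. Alternatives used edgeR 4.0.16 and DESeq2 1.42.0 (R 4.3.3) for scaling of rounded expected counts. Other steps ran in python 3.11.15 with pandas 2.3.3, matplotlib 3.10.9, scipy 1.17.1 and numpy 2.4.6.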

Additional observations from a re-analysis of the deposited data

How the results depend on the processing

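No paired analysis was possible because the labels give 1 group. The number of members at the expression threshold was 5 by TPM and 3 at a threshold of 2 TPM. The median member moved from 1.26 TPM to 1.37 by posterior mean TPM and 1.04 with coding transcripts alone. It was 2.14 once spike-ins, globin and mitochondrial genes were left out of the scaling. Taking coding transcripts alone also left out ENSMUST00000156317.1 of Wnt2, which has no type in GENCODE M21. The share of Znrf3 in Znrf3 and Rnf43 turned from 34.9% to 51.1% by expected counts, and was 48.6% with coding transcripts and 41.6% per base of the longest coding transcript, an alternative chosen after seeing the data. The share of Lgr4 in Lgr4 and Lgr5 was 82.4% by TPM, 85.8% by counts, 85.8% by coding transcripts and 77.3% by posterior mean, that of Rspo3 beside Rspo1 83.6% by counts and 75.0% by posterior mean, and that of Wnt2 beside Wnt9b 93.8% by counts, 96.9% by posterior mean, 96.2% by coding transcripts and 96.8% per base of the longest one. Over all genes, 308 passed 1.5-fold between libraries, 1361 with a pseudocount of 0.1, 833 with spike-in scaling and 566 with no filter on counts. Of the members 0 passed under any of the 4 other scalings or pseudocounts of TPM tried. The scalings by edgeR, DESeq2 and spike-ins kept the pseudocount of 1, which understates differences of genes below 1 TPM. By counts scaled to the library total Axin2 was just past 1.5-fold, as given above. Spike-in scaling moved the median gene by -0.31 on the log2 scale. The median leading transcript held 83.5% of its gene, 70.0% by posterior mean and 90.0% by counts. Of the Wnt secretion genes 1 reached the threshold, and 2 did by posterior mean, at 0.5 TPM or without replicate 1 (1 without replicate 2). Of the bile duct markers 3 did, 5 at 0.5 TPM, and 3 to 5 in a single library. The cause of these shifts was not tested. Depth limits Axin2, Notum and Wnt9b, which rest on fewer than 20 counts in a library.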
